A study of Mus musculus with 8 samples.

Results

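The microRNAs mmu-miR-103-3p and mmu-miR-107-3p were examined in mouse kidney, 2 of the 1881 miRNAs on the array. Both were chosen by name, as rows of the scanner files that carry these names, with the LPS-against-sham values of these data already known. Their levels in each group are therefore given as a description, with no test. MicroRNAs were measured with 8 Agilent 1-colour arrays on total RNA from 30 mg of kidney, 100 ng of it labelled with Cy3. The LPS group (LPS-AKI model, 4 arrays, replicates 6, 10, 11 and 12) was given lipopolysaccharide, a component of the bacterial outer membrane, by intraperitoneal injection as a model of septic acute kidney injury. The dose was 10 µg for each gram of body weight, and kidneys were taken after 24 h. The sham group (sham model, 4 arrays, replicates 5, 6, 7 and 8) was injected with normal saline. Strain, sex, age, the route and time for the sham group, and whether each sample came from its own animal are not given in the sources used here.

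MiR-103 and miR-107 are closely related miRNAs made in many tissues from introns of the pantothenate kinase genes, whose enzymes carry out the rate-limiting step of coenzyme A synthesis. They share a seed, the stretch near the 5′ end through which a miRNA finds its target mRNAs, and are known to repress Dicer and, in liver and fat, caveolin-1, through which they reduce insulin sensitivity. MiR-103 is also often used as a reference for quantitative PCR because its level varies little between samples.

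The mature sequences, taken from the RefSeq entries on GRCm38.p6 (both of 2 names matched), are shown to make clear how little separates the pair. Capitals mark the seed, bases 2 to 8 from the 5′ end.
mmu-miR-103-3p: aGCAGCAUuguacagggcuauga
mmu-miR-107-3p: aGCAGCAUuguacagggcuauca
They differ by 1 base in 23, the substitution G22C from miR-103-3p to miR-107-3p, counted from 1 at the 5′ end. Of 1679 mature miRNA names in that table, these 2 alone have the seed.

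MiR-103-3p has 2 genes. Mir103-1 lies on chromosome 11 within the span of Pank3 and Mir103-2 on chromosome 2 within Pank2, while Mir107 lies on chromosome 19 within Pank1. The hairpins are shown with the 3p arm in capitals, because that arm is the same in both miR-103 hairpins and the array cannot assign its signal to either gene.
Mir103-1: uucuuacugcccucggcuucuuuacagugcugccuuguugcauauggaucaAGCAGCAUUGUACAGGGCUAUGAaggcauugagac
Mir103-2: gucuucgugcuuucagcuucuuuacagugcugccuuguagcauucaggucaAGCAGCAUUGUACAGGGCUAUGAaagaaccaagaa
Mir107: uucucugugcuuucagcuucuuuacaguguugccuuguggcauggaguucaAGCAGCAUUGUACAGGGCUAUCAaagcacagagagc

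Each miRNA was read by 2 probes of different length, printed here 5′ to 3′ with the base that tells the pair apart in capitals.
miR-103-3p, A_54_P1341: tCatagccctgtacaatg
miR-103-3p, A_54_P1342: tCatagccctgtacaat
miR-107-3p, A_54_P1420: tGatagccctgtacaatgct
miR-107-3p, A_54_P1421: tGatagccctgtacaatgc
The probes are complementary to the 3′ end of the miRNA, from base 6 or 7 to base 23 of miR-103-3p and from base 4 or 5 to base 23 of miR-107-3p. Set against the other miRNA, each has 1 mismatch, at probe position 2 (C2G for the miR-103-3p probes, G2C for those of miR-107-3p, counted from the 5′ end of the probe). How much of either signal comes from the other miRNA was not tested, so the pair is reported as not fully separable. On mm9, the build of the files, the longer miR-103-3p probe is listed on chromosome 2 from 131113844 to 131113861 and on chromosome 11 from 35595954 to 35595971, and the longer miR-107-3p probe on chromosome 19 from 34895232 to 34895250. That span, printed as the files list it, covers 19 bases, 1 fewer than the probe.

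All 8 arrays lay on 1 slide and were scanned together, with every sham array in slide row 1 and every LPS array in row 2. The group and the row on the slide therefore cannot be told apart. Between 336 and 375 miRNAs were detected per array, and 15.8% to 17.5% of spots were well above background. The 75th-percentile signal by which each array was divided was 8.94 ± 0.05 log2 units in sham and 9.01 ± 0.05 in LPS (SD, n = 4 per group). In bulk tissue, fewer cells of a type and less RNA per cell cannot be told apart. The kidney label was checked against marker miRNAs: 4 of 4 tubule markers (miR-192-5p, miR-194-5p, miR-204-5p and miR-30a-5p) were detected on all arrays, and liver miR-122-5p and neuronal miR-124-3p on none. Of the striated-muscle markers, miR-1a-3p was also detected on all arrays and miR-133a-3p on none.

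Both miRNAs were well measured. Each probe was printed on 15 spots per array, 100% of these spots were well above background on every array and none was saturated. Mean intensities ran from 1395 to 1676 for the 18-base and from 888.3 to 1048 for the 17-base probe of miR-103-3p, and from 2525 to 3114 for the 20-base and from 1468 to 1796 for the 19-base probe of miR-107-3p. The spots of a probe on 1 array varied by 1.40% to 5.28% (coefficient of variation), which gives a standard error of a probe's mean of at most 0.02 log2 units. Levels of different probes or miRNAs are not set against each other, since probes differ in how strongly they bind.

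Kidneys given LPS had slightly less signal for both miRNAs, at 90.0% of the sham level for miR-103-3p and 91.3% for miR-107-3p. A level here is the log2 of the signal summed over the probes of a miRNA after division by the array's 75th percentile. For mmu-miR-103-3p they were 2.33, 2.43, 2.41 and 2.38 on sham replicates 5, 6, 7 and 8, and 2.24, 2.30, 2.18 and 2.21 on LPS replicates 6, 10, 11 and 12. Every LPS array was below every sham array, although the gap between the nearest arrays, LPS replicate 10 and sham replicate 5, was smaller than the spread within either group. The means were 2.39 ± 0.04 in sham and 2.23 ± 0.05 in LPS (SD, n = 4 per group), a difference of -0.15 ± 0.05 log2 units (SE).

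For mmu-miR-107-3p the levels were 3.21, 3.23, 3.23 and 3.23 on sham replicates 5, 6, 7 and 8, and 3.15, 3.18, 3.03 and 3.02 on LPS replicates 6, 10, 11 and 12. The sham arrays lay close together, and the LPS arrays formed a higher pair and a lower pair, all below sham. The means were 3.22 ± 0.01 in sham and 3.09 ± 0.08 in LPS (SD, n = 4 per group), a difference of -0.13 ± 0.05 (SE). For 2 of 2 members all LPS arrays were below all sham arrays, as was the case for 24.9% of the 338 miRNAs tested, so nothing is read from this count.

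**Figure D1:**
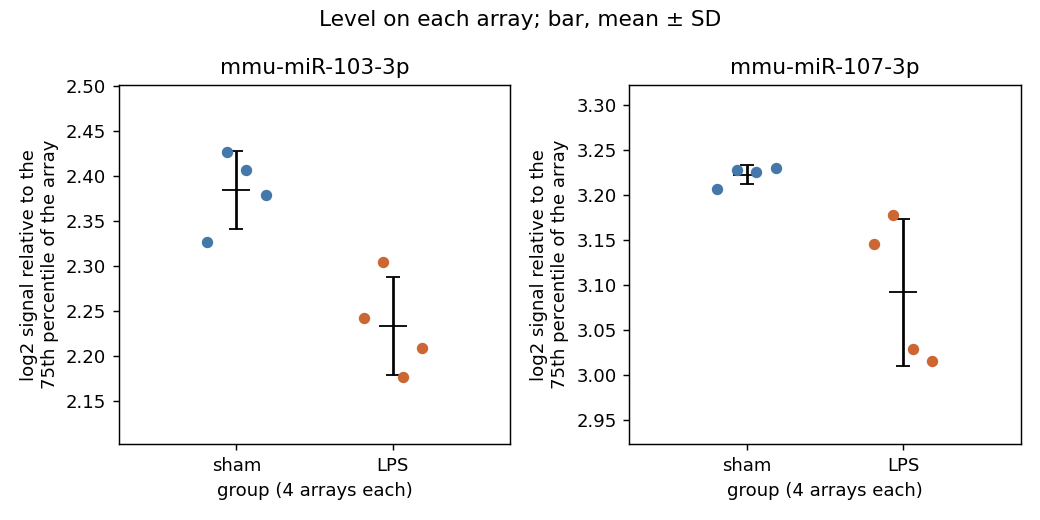
Level of mmu-miR-103-3p (left) and mmu-miR-107-3p (right) on each of 4 sham and 4 LPS arrays, as log2 signal over the array's 75th percentile; points are arrays and bars the mean ± SD, and the axes do not start at 0. LPS arrays lie at 2.18 to 2.30 against 2.33 to 2.43 in sham for miR-103-3p, and at 3.02 to 3.18 against 3.21 to 3.23 for miR-107-3p.

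Each of the 4 columns of the slide held 1 array of each group. As every LPS array was below every sham array, the difference within each column had to be negative. Only its size is therefore described. For miR-103-3p, LPS minus sham was -0.09, -0.12, -0.23 and -0.17 in columns 1, 2, 3 and 4. For miR-107-3p it was -0.06, -0.05, -0.20 and -0.22. Columns 3 and 4 held the larger differences for both miRNAs.

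These differences went the same way as the shift of the whole table and were somewhat larger than it. The median difference of the 338 tested miRNAs was -0.08, which leaves miR-103-3p 0.07 and miR-107-3p 0.05 log2 units below it (differences from that median of -0.07 and -0.05). From the lowest difference upward they stood at positions 117 and 131 of 338. Without scaling between arrays the median difference was -0.01, the differences of the pair were -0.08 and -0.05, and the groups overlapped for both: summed intensities of miR-103-3p ran from 2420 to 2703 in sham and from 2283 to 2658 in LPS, and those of miR-107-3p from 4407 to 4771 and from 3993 to 4871. The groups also overlapped for both when the percentile was taken over all probes (-0.10 and -0.07) and in the authors' deposited ratio table (-0.12 and -0.10). The brightest probe of each miRNA alone gave overlapping groups for both as well (-0.12 and -0.10), and miR-107-3p overlapped with quantile normalization, cyclic loess and spike-in scaling. Settings that multiply whole arrays cannot change the distance to the median. Among those that can, it was -0.12 and -0.07 with quantile normalization, -0.11 and -0.08 with cyclic loess, and -0.06 and -0.03 with the brightest probe.

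**Figure D2:**
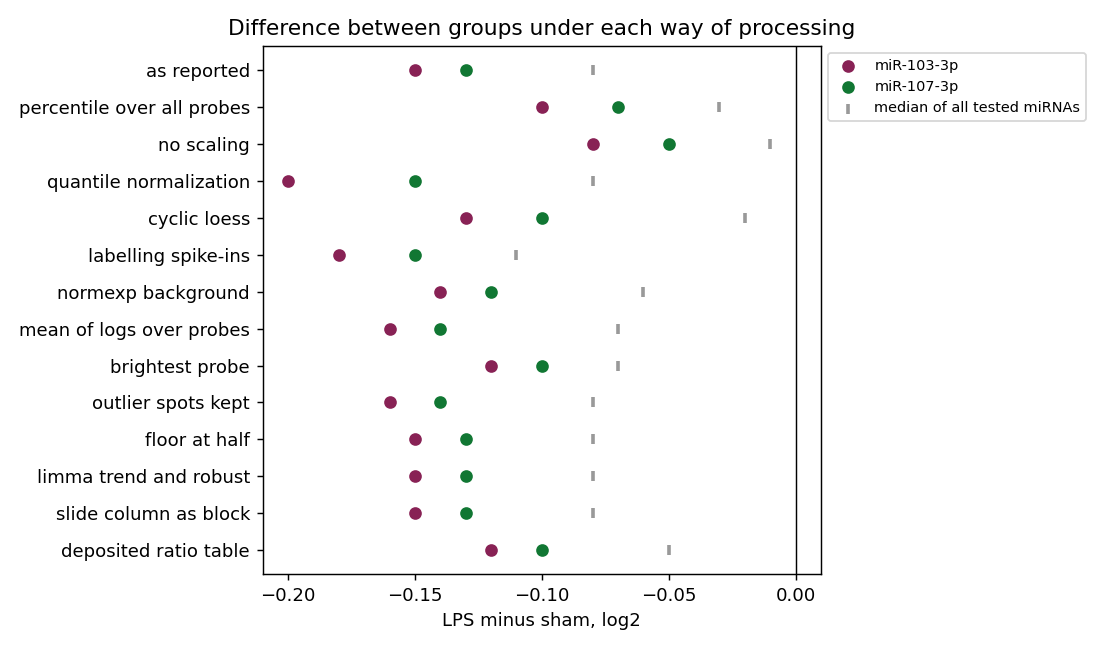
LPS minus sham (log2) for miR-103-3p and miR-107-3p (points) and for the median of all tested miRNAs (vertical ticks) under each way of processing. Both miRNAs lie below 0 and below the median in every setting drawn, from -0.20 to -0.08 for miR-103-3p and from -0.15 to -0.05 for miR-107-3p. The lower floor, the other limma options and slide column as a block leave these levels unchanged, so their points repeat the reported ones.

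The 2 probes of each miRNA did not show the same difference, and the shorter probe was the one that differed more. The 18-base probe of miR-103-3p read 1.60, 1.71, 1.70 and 1.67 on sham replicates 5 to 8 and 1.548, 1.639, 1.496 and 1.498 on LPS replicates 6, 10, 11 and 12. Here the groups overlapped, as LPS replicate 10 was above sham replicate 5, and the difference was -0.12 log2 units. The 17-base probe lacks the base that pairs with base 6 of the miRNA, which lies within the seed. This probe read 0.99, 1.07, 1.04 and 1.02 in sham and 0.85, 0.87, 0.76 and 0.85 in LPS, a difference of -0.20 with all LPS arrays lower.

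The probes of miR-107-3p followed the same order. The 20-base probe read 2.52, 2.55, 2.54 and 2.55 on sham replicates 5 to 8 and 2.49, 2.53, 2.38 and 2.35 on LPS replicates 6, 10, 11 and 12, a difference of -0.10 with overlapping groups. The 19-base probe read 1.80, 1.81, 1.82 and 1.82 in sham and 1.69, 1.71, 1.56 and 1.57 in LPS, a difference of -0.18 with no overlap. For both miRNAs, therefore, the groups were apart on the shorter probe and overlapped on the longer.

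**Figure D3:**
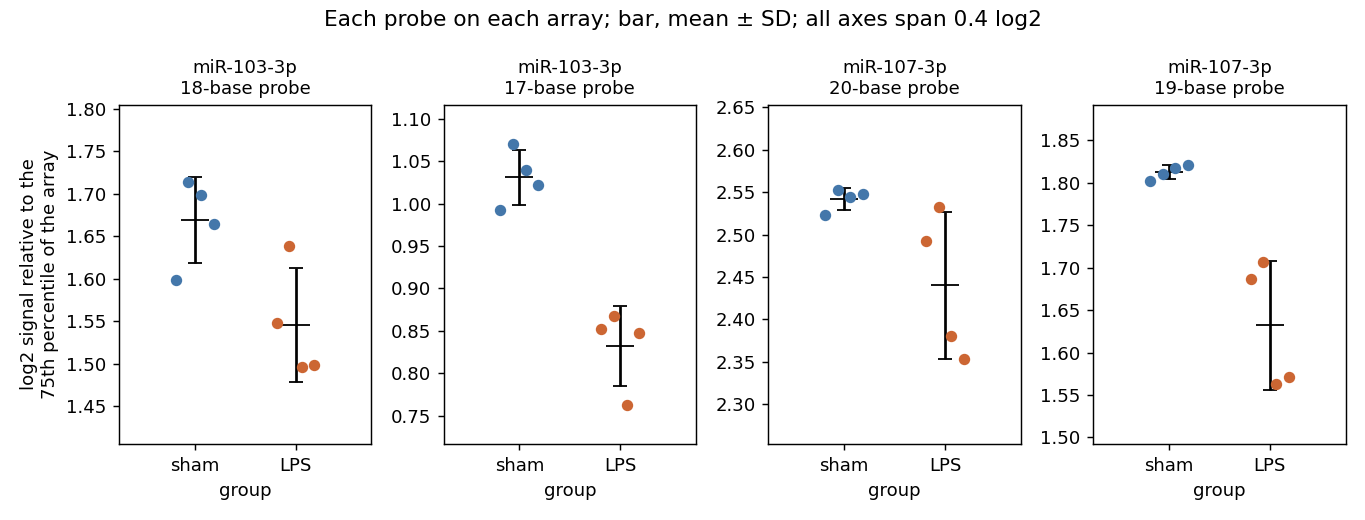
Log2 signal of each of the 4 probes over the array's 75th percentile, by group; points are the 4 arrays of a group, bars the mean ± SD, and the panels share 1 scale length without starting at 0. With this scaling the 17-base and 19-base probes separate the groups (-0.20 and -0.18), while the 18-base and 20-base probes overlap (-0.12 and -0.10). Without scaling the groups overlap on all 4 probes.

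A ratio of the shorter to the longer probe of 1 miRNA on 1 array does not depend on scaling between arrays. For miR-107-3p its log2 was -0.72, -0.74, -0.73 and -0.73 on the sham arrays and -0.81, -0.83, -0.82 and -0.78 on the LPS arrays, all lower, with a difference of -0.08. For miR-103-3p it was -0.61, -0.64, -0.66 and -0.64 in sham and -0.70, -0.77, -0.73 and -0.65 in LPS, with a difference of -0.07 and an overlap of LPS replicate 12 with sham replicate 7.

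The same ratio was taken for the 230 other miRNAs with nested probes detected on all arrays, a comparison added after these values were seen. It was lower in LPS for 152 and higher for 78, with a median of -0.02 and an interquartile range of -0.06 to 0.01. All LPS arrays were below all sham arrays for 39 of the 230 and above them for 12. A difference lower than that of miR-103-3p was found in 47 and lower than that of miR-107-3p in 45, so the pair lay on the low side of a shift seen in many miRNAs. Its cause was not tested.

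**Figure D4:**
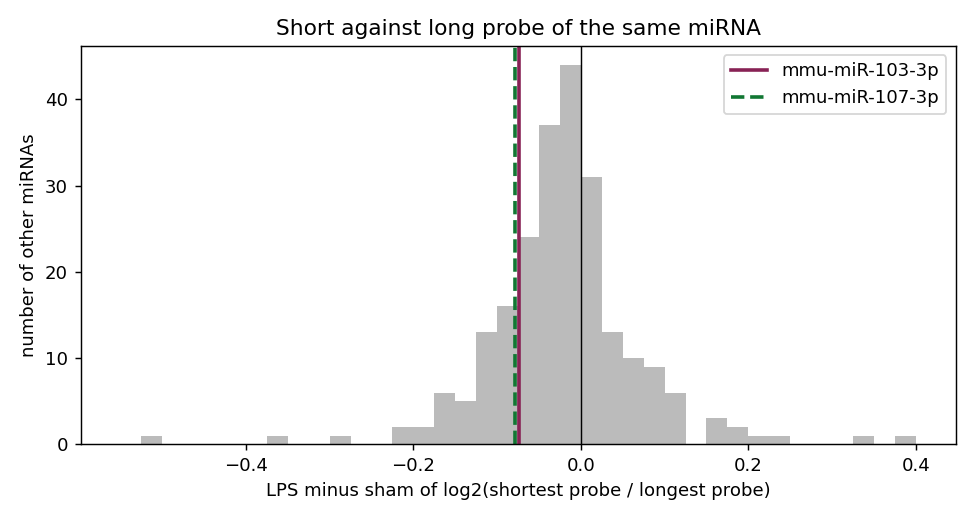
Histogram over 230 other miRNAs of LPS minus sham for the log2 ratio of the shortest to the longest probe of the same miRNA; vertical lines mark miR-103-3p (-0.07) and miR-107-3p (-0.08). The bulk of the histogram lies slightly below 0, with a median of -0.02.

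Both miRNAs differed between groups by nearly the same amount. On each array, the log2 level of miR-103-3p minus that of miR-107-3p ran from -0.88 to -0.80 in sham and from -0.90 to -0.81 in LPS. The group means of this quantity were -0.84 ± 0.03 and -0.86 ± 0.04 (SD, n = 4 per group), a difference of -0.02, which is smaller than the spread within either group. Across the 8 arrays the levels of the pair correlated at 0.919, and their deviations from the group means at 0.765. Arrays share their scaling factor, and near-identical probes may share signal, so these correlations are a description.

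Nor was the partner the closest match in either case. By level over the 8 arrays, miR-107-3p stood at position 21 among the 337 other tested miRNAs for miR-103-3p, and miR-103-3p at position 12 for miR-107-3p. The miRNAs most like miR-103-3p were miR-196b-5p (correlation 0.984), let-7g-5p (0.972), miR-192-3p (0.969), miR-455-3p (0.959) and miR-374c-5p (0.955). Those most like miR-107-3p were miR-455-5p (0.967), miR-194-5p (0.965), miR-669c-3p (0.938), miR-378b (0.937) and miR-3473g (0.931). The median correlation with all others was 0.331 for miR-103-3p and 0.317 for miR-107-3p. By deviations from the group means, which leave the group difference out, miR-15a-5p (0.962), miR-196b-5p (0.947) and miR-20b-5p (0.93) were closest to miR-103-3p, and miR-185-5p (0.931), miR-194-5p (0.928) and miR-22-3p (0.923) to miR-107-3p. All are values over 8 arrays that share 1 slide.

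The other arms of the same hairpins were not detected. The 5p arms are shown with their seeds in capitals, since miR-103-1-5p differs from miR-103-2-5p by 1 base, as does miR-103-2-5p from miR-107-5p.
mmu-miR-103-1-5p: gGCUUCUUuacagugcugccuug
mmu-miR-103-2-5p: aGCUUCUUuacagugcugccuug
mmu-miR-107-5p: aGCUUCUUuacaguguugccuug
The array has entries for miR-103-1-5p and miR-107-5p. The 3 probes of the former match miR-103-2-5p as well, so 1 entry covers both genes. Neither entry was well above background on any of the 8 arrays, so no value is given for LPS against sham.

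The miR-15 and miR-16 family carries the start of miR-103 shifted by 1 base, which gives an overlapping but not identical seed. It is shown for miR-15a-5p and miR-16-5p, with the run they share with the 5′ end of miR-103-3p in capitals.
mmu-miR-15a-5p: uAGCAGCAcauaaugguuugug
mmu-miR-16-5p: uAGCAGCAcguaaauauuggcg
Of 8 listed relatives, 7 share 7 bases and miR-503-5p shares 6. Among the 7 that were tested with limma, 0 were called higher (0 also at an unadjusted p of 0.05) and 1 lower at an adjusted p of 0.05. Of all 338 miRNAs, 14.8% were called higher and 25.4% lower, 40.2% in all. That split, 50 higher and 86 lower, depends on the scaling: it was 55 and 53 with the percentile over all probes, 57 and 49 without scaling, 65 and 66 with cyclic loess, and 46 and 53 in the deposited table. The median difference of the 7 was -0.01. The 1 called lower, miR-503-5p, was detected on 4 of 4 sham but 2 of 4 LPS arrays and so entered the test through the sham group alone. Its size is therefore uncertain: the difference was -0.84, but -0.362 with the mean of logs over probes, -0.208 with normexp background correction and -1.14 in the deposited table. MiR-15b-5p (0.10 ± 0.05, limma adjusted p = 0.160) and miR-195a-5p (0.04 ± 0.07, limma adjusted p = 0.683) were not called, and the former was -0.0373 with quantile normalization.

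Since miR-103 serves as a reference in quantitative PCR, 16 miRNAs that are used the same way were read alongside. Of the 13 tested with limma, 0 were called higher (0 also at an unadjusted p of 0.05) and 3 lower. At that unadjusted p, miR-425-5p (-0.15, limma adjusted p = 0.0513) and miR-423-5p (-0.14, limma adjusted p = 0.0570) were lower as well. Among all 338 tested miRNAs, 14.8% were called higher and 25.4% lower, so nothing is read from these counts. The median difference of the list was -0.10, between that of all tested miRNAs and those of the pair. The 3 called lower were miR-320-3p (fell by 0.31 ± 0.06, limma adjusted p = 0.00532), miR-484 (fell by 0.21 ± 0.05, limma adjusted p = 0.0147) and miR-361-5p (fell by 0.14 ± 0.05, limma adjusted p = 0.0431). The miR-484 call was lost with the all-probe percentile (-0.158), no scaling (-0.138), cyclic loess (-0.116), normexp (-0.0951) and in the deposited table (-0.18). The miR-361-5p difference is as small as those of the pair, its call was lost in 15 alternatives, and it was 0.861 when outlier spots were kept.

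In the list of miRNAs linked to glucose and lipid metabolism, 2 of 10 tested rose and 1 fell, with a median of 0.06. Among all 338 tested miRNAs, 14.8% were called higher and 25.4% lower. MiR-378a-3p, from an intron of the gene for the coactivator PGC-1β, fell by 0.28 ± 0.04 (limma adjusted p = 0.00187). MiR-29a-3p rose by 0.25 ± 0.07 (limma adjusted p = 0.0308) and miR-29b-3p by 0.23 ± 0.07 (limma adjusted p = 0.0344). Both calls were lost with slide column as a block and with no filter, and in 7 and 10 of 23 alternatives in all. These include leaving out sham replicate 7 or 8 or LPS replicate 10 or 12 for both, and sham replicate 5 or 6 or LPS replicate 6 for miR-29b-3p. Of the 14 listed, 3 were detected on no array.

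MiR-107 has been described as responsive to p53 and, with miR-103, to hypoxia. Of 6 tested p53-linked miRNAs 2 rose and 3 fell, with a median of -0.12, against 14.8% called higher and 25.4% lower of all 338. The miRNA of this list that was tested and not called was miR-34a-5p (0.05 ± 0.22, limma adjusted p = 0.890). MiR-192-5p and miR-194-5p of this list are also tubule markers, and miR-145a-5p is also a smooth-muscle marker. The 3 that fell are therefore counted again below among the cell-type markers. The 3 smallest p-values were those of miR-145a-5p (fell by 0.44 ± 0.08, limma adjusted p = 0.00278), miR-194-5p (fell by 0.33 ± 0.07, limma adjusted p = 0.0107) and miR-34b-5p (rose by 0.32 ± 0.09, limma adjusted p = 0.0235). The miR-34b-5p call was lost with slide column as a block, normexp (0.104), the brightest probe and no filter. It was also lost on leaving out any of LPS replicate 12 and sham replicates 7 and 8. The miR-194-5p call was lost without scaling (-0.249) and with no filter. The hypoxia-induced miR-210-3p differed by 0.09 ± 0.22 (limma adjusted p = 0.777).

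**Figure D5:**
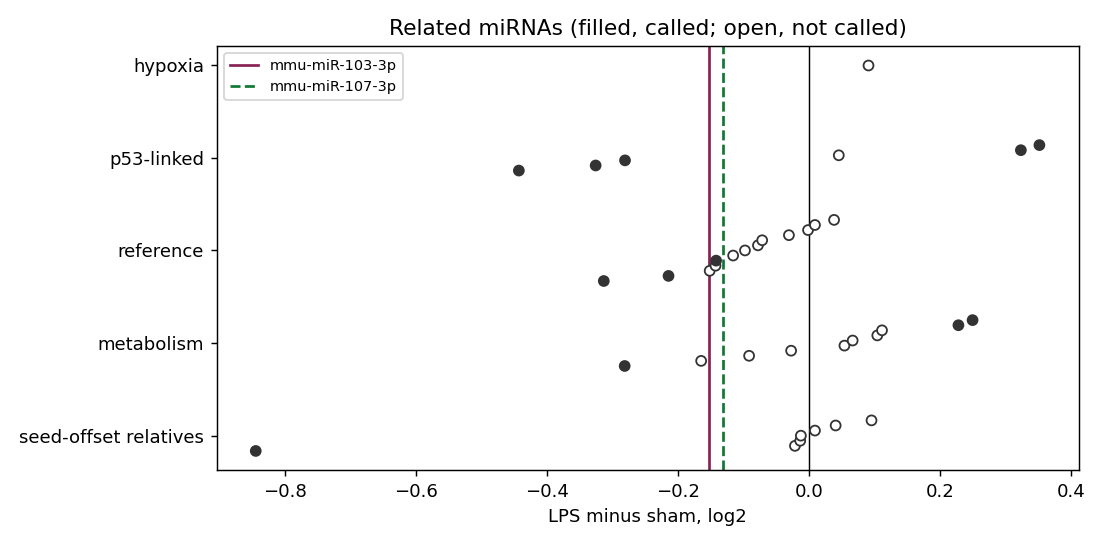
LPS minus sham (log2) of each tested miRNA in the lists related to miR-103 and miR-107, filled where called at an adjusted p of 0.05 and open where not; vertical lines mark miR-103-3p (-0.15) and miR-107-3p (-0.13), which were not tested. Of all 338 tested miRNAs 40.2% were called. Of the reference list 10 of 13 were not called, and 6 of the 7 seed-offset relatives were not called. The other relative, miR-503-5p, was detected on 2 of 4 LPS arrays.

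Markers of several cell types moved between the same groups. Over all 338 tested miRNAs, 25.4% were called lower and 14.8% higher. Of the 4 tubule markers 3 were called lower. The summed level of all 4 ran from 49.6 to 53.5 times the 75th percentile in sham and from 43.7 to 49.6 in LPS. Most of that sum is miR-30a-5p (4.95 log2 in sham), which was not called (-0.11, limma adjusted p = 0.204). Of 6 leukocyte markers 2 rose (miR-223-3p and miR-155-5p). The others were not called and went both ways: miR-142a-3p (0.26), miR-142a-5p (0.13), miR-342-3p (-0.01) and miR-150-5p (-0.22). The summed level of the leukocyte list ran from 2.26 to 3.12 in sham and from 3.45 to 3.72 in LPS. Of 3 red-cell markers 2 were tested and both were called higher, although miR-144-3p was detected on 2 of 4 sham arrays and entered the test through the LPS group alone. The summed level of the red-cell list ran from 0.514 to 3.14 in sham and from 2.03 to 13.8 in LPS. The red-cell marker miR-486a-5p was detected on 0 of 4 sham and 2 of 4 LPS arrays. Endothelial miR-126a-3p (difference -0.02) and striated-muscle miR-1a-3p were not called, and of 2 smooth-muscle markers 1 fell. The part of these shifts in the differences of miR-103-3p and miR-107-3p was not tested.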

How the data were processed

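The authors deposited scanner output, whose spot intensity is, per the file headers, background-subtracted with spatial detrending and without scaling between arrays; the software was Agilent Feature Extraction 12.0.3.1, per the submitters' processing notes. A table deposited by the authors gives a linear ratio per miRNA and array. For 383 miRNAs with signal throughout, 100% of its values were within 0.01 log2 of the scanner's total gene signal once array and miRNA factors were removed. The table is thus linear, centred for each miRNA, and higher where signal was higher; how the array and miRNA factors were set is unknown. Its column medians were 0.995, 1.06, 1.05 and 0.980 (sham 5 to 8) and 0.958, 0.960, 1.01 and 1.03 (LPS 6, 10, 11 and 12).

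Outlier-flagged spots were dropped, spots averaged per probe, arrays divided by the 75th percentile of 551 probes detected on all arrays, and probes summed per miRNA, floored (-4.68 log2) and log2-transformed. Detection required over 50% of a probe's spots well above background. The 338 miRNAs detected on all arrays of a group were fitted with limma 3.58.1 in R 4.3.3 (2-sided, Benjamini-Hochberg, threshold 0.05); the fit was tested on simulated data. Errors of differences come from that fit. No 2 arrays were identical. P-values set each group difference against the spread between arrays within a group, which may be technical. The number of arrays limits the precision. The miRNAs named were the pair, the 5p arms and up to 3 per related list with the smallest p. Also named were, per member, the 5 most alike by level and 3 by deviation. Marker miRNAs and further listed miRNAs are named where a count is broken down. The comparison of nested probes was chosen after seeing the data. Members and lists were chosen with earlier results of these data known.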

Additional observations from a re-analysis of the deposited data

Results flagged for a closer look

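Each set of 4 arrays was searched for a single distant value. This gave 1 case in 40, while about 2 arise by chance. For mmu-miR-107-3p, sham replicate 5 was at 3.21 (3.207) while the other sham arrays lay from 3.226 to 3.230. The distance is 0.02 log2 units, and the other 3 arrays were close together. The same array was the lowest sham array for miR-103-3p, at 2.33.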

How the results depend on the processing

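Differences of the pair stayed negative in all 25 alternatives, but many of these could not have changed the sign. The filter settings, a lower floor, other limma options and slide column as a block left the levels of the pair unchanged. Leaving out 1 array could not change the sign either, as every LPS array was below every sham array. MiR-103-3p ranged from -0.202 to -0.0762 and miR-107-3p from -0.181 to -0.0544. They moved by more than the replicate SD for miR-103-3p with the percentile over all probes (-0.0961), no scaling (-0.0762) and quantile normalization (-0.202), and for miR-107-3p with no scaling (-0.0544). The mean over the 4 probes, -0.151, moved to -0.0948 and -0.0748 with the all-probe percentile and no scaling. The longest and shortest probes alone, added after seeing the data, gave -0.124 and -0.198 for miR-103-3p and -0.101 and -0.181 for miR-107-3p. Of all 338 tested miRNAs 136 (40.2%) were called. This count was 60 with no filter (all 1881 miRNAs tested) and 80 with slide column as a block. It was 85 to 152 leaving out each array (85 without sham replicate 6, 88 without LPS replicate 12). Of the related miRNAs 12 were called, against 5, 6 and 6 to 12 in the same settings (6 without sham replicate 7 or 8 or LPS replicate 12). Reversed differences were -0.0373 for miR-15b-5p with quantile normalization, 0.861 for miR-361-5p with outlier spots kept, -0.0154 for miR-195a-5p without LPS replicate 10 (leaving out each array, -0.0154 to 0.0753) and -0.0336 for miR-210-3p without LPS replicate 12 (-0.0336 to 0.295); only miR-361-5p was called. Calls were lost in 7 alternatives for miR-29a-3p, 10 for miR-29b-3p, 5 for miR-484, 15 for miR-361-5p, 2 for miR-194-5p and 7 for miR-34b-5p. The causes were not tested. Samples were not paired by replicate number, of which the groups share 1; slide column, with 1 array of each group, served as the block.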
